A study of Arabidopsis thaliana with 2 samples.

Results

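The mitochondrial-genome transcripts of Arabidopsis thaliana seedlings are described here across 2 RNA-seq libraries. They are the 68 loci with an ATMG identifier that had at least 1 uniquely placed read in either library, out of 23667 loci of all genomes. Of the rest, 80 were chloroplast loci and 23519 nuclear loci. The FMO5-OE T1 library came from plants in the Col-0 background whose genotype label points to overexpression of FMO5. The Col-0 library came from wild type plants. Both were whole seedlings aged 12 days, kept at 20 °C in long days on agar plates of 0.5X GM medium without treatment. The promoter of the transgene, the number of independent lines and the number of pooled plants are given in none of the labels read for this, nor is what T1 denotes. With 1 library per genotype there was no replicate and no test. Every interval below is a 95% interval that covers counting error only, exact except for the Wilson intervals of library shares.

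Plant mitochondria keep a genome of their own. It encodes ribosomal RNAs, some ribosomal proteins, part of the cytochrome c maturation machinery and a minority of the subunits of respiratory complexes I, III and IV and of the ATP synthase. The other subunits, and nearly all factors that transcribe, splice and edit mitochondrial RNA, are made from nuclear genes and imported. Many mitochondrial transcripts are spliced, some from separately transcribed pieces, and many cytidines are edited to uridine. Plant mitochondrial messenger RNAs carry no stable poly(A) tail, and no label says whether the libraries were selected for poly(A) or depleted of ribosomal RNA.

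The tables held 12.2 M reads in the FMO5-OE T1 library and 11.6 M in the Col-0 library (M, mega), all of 49 bases. FMO GS-OX5, a flavin monooxygenase that oxidises the sulfur of glucosinolates and the gene the label refers to, had 1379 reads in FMO5-OE T1 and 28 in Col-0, a ratio of 43.6 (30.1 to 65.9). Shoot markers (4 genes) had log2 ratios between -0.32 and -0.08, and root markers (6 genes) between -0.58 and 0.29. Of 5 markers of pollen, flower and seed, 1 exceeded 1 CPM in a library, the seed gene OLEO1 with 13 reads in FMO5-OE T1 and 5 in Col-0, while the seed storage gene CRU3 had 0 in both. Chloroplast loci took 1.91% of the reads in FMO5-OE T1 and 2.37% in Col-0.

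Mitochondrial loci held 17499 reads in FMO5-OE T1 and 18002 in Col-0. They made up 0.143% (Wilson interval 0.141 to 0.145) of the FMO5-OE T1 library and 0.156% (0.153 to 0.158) of the Col-0 library. After scaling of the libraries to each other with TMM factors, the summed level was 1387 CPM (counts per M reads) in FMO5-OE T1 and 1610 CPM in Col-0, a ratio of 0.861 (0.844 to 0.880). In whole seedlings, a smaller number of cells of a given type and less RNA per cell cannot be told apart in such a ratio. The part that the shoot, root and chloroplast values above have in it was not tested.

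The sum was lower in FMO5-OE T1 through 1 locus. ATMG00020, ATMG01390 and ATMG00030 together held 94.3% of the mitochondrial reads in FMO5-OE T1 and 95.3% in Col-0. Without ATMG00020 the ratio of the summed CPM was 1.09 (1.05 to 1.13). The 65 loci outside these 3 had 1005 reads in FMO5-OE T1 and 844 in Col-0, a ratio of 1.06 (0.962 to 1.16). That interval spans 1, and it lay at 1.03 to 1.24 when the libraries were scaled by their total counts instead. Scaling by total counts also moved the median log2 ratio of all loci at 5 CPM or more up by 0.09. With DESeq2 size factors the interval was 0.967 to 1.16.

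**Figure D1:**
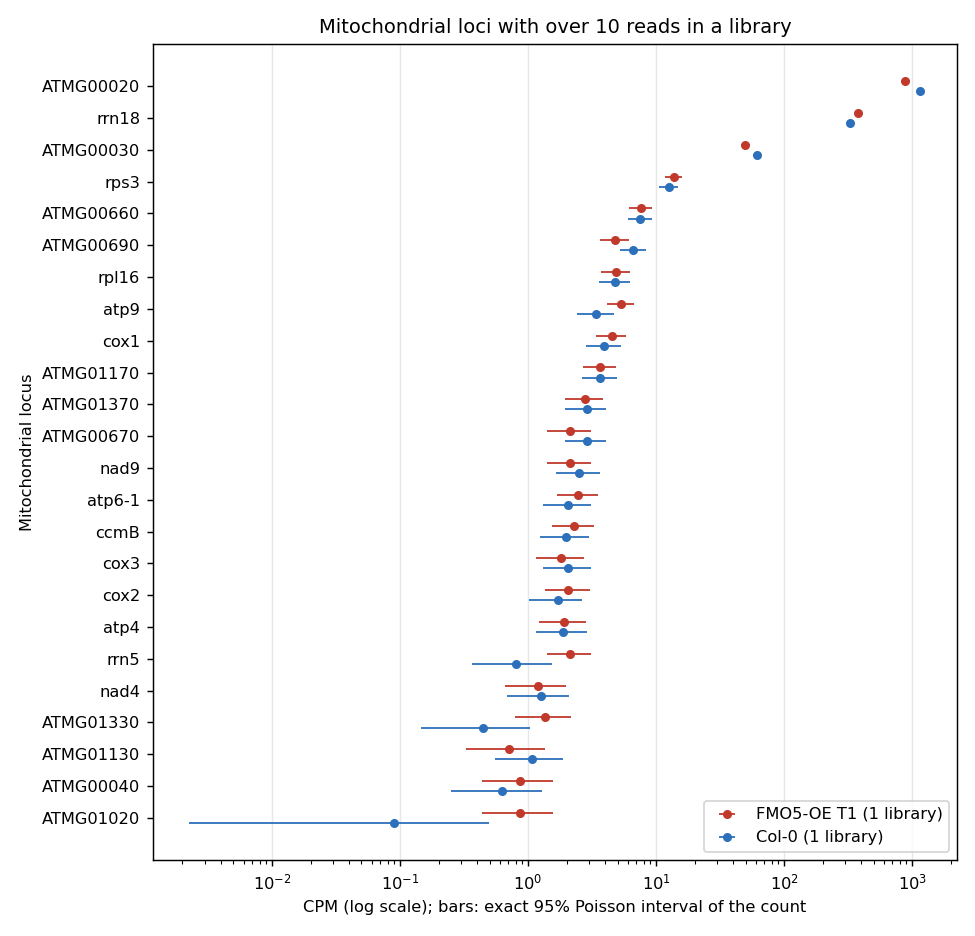
Level of the mitochondrial loci with over 10 reads in a library, in CPM on a log axis, for FMO5-OE T1 (red, upper point of each pair) and Col-0 (blue, lower point), 1 library each, with exact 95% Poisson intervals of the count as bars. ATMG00020 and rrn18 lie far above the rest, with 883 and 374 CPM in FMO5-OE T1 and 1148 and 325 CPM in Col-0.

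The unnamed locus ATMG00020 led the counts, followed by ATMG01390. ATMG01390 has the length of rrn18, the small-subunit ribosomal RNA of 1935 bases annotated at MT:126289-128223 on the minus strand of the TAIR10.1 reference. It had 4723 reads in FMO5-OE T1 and 3634 in Col-0, covering 98.1% and 98.5% of its length. Its level was higher in FMO5-OE T1, at a ratio of 1.15 (1.10 to 1.20). ATMG00020, of 2568 bases, had 11142 reads in FMO5-OE T1 and 12839 in Col-0 and was covered over 95.2% and 95.4%. Its ratio was 0.769 (0.750 to 0.789). The reference annotates a large-subunit RNA, rrn26, with 3169 bases, and no mitochondrial model had that length. The identifier listed for rrn26 is among the mitochondrial loci, with a model of another length. ATMG00020 is therefore left without a name, which does not mean that it is no ribosomal RNA.

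The balance of these RNAs within a library does not depend on how libraries are scaled. There were 0.424 rrn18 reads per ATMG00020 read in FMO5-OE T1 (0.410 to 0.439) and 0.283 in Col-0 (0.273 to 0.294). ATMG00030, an unnamed model of 324 bases, had 629 reads in FMO5-OE T1 and 685 in Col-0, a ratio of 0.814 (0.729 to 0.908). Its reads stood on 165 bases in FMO5-OE T1 and 190 in Col-0, so that each covered base was read about 187 and 177 times. Set against ATMG00020 its intervals overlapped between the libraries, with 0.0565 reads per ATMG00020 read in FMO5-OE T1 (0.0520 to 0.0612) and 0.0534 in Col-0 (0.0493 to 0.0576).

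The 5S ribosomal RNA rrn5 (ATMG01380) is shown whole, since it is so short that few reads can start in it and since its ratio was among the highest. It lies at MT:126001-126118 on the minus strand in TAIR10.1, and none of its bases is singled out here by capitals.
rrn5: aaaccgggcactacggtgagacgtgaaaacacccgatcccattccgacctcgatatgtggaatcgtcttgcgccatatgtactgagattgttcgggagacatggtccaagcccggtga
It had 27 reads in FMO5-OE T1 and 9 in Col-0, covering 90.7% and 88.1% of its 118 bases. The ratio was 2.66 (1.21 to 6.43), above 1 but resting on few reads.

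Many mitochondrial genes share sequence with a large copy of the mitochondrial genome in the nucleus. Of the 367808 stretches of 49 bases in the reference mitochondrial genome, 70.6% also occurred, base for base, in a nuclear chromosome, and 70.4% on chromosome 2. The copy spans 2:3239038-3509765 in TAIR10.1, 271 kb in which 96.0% of stretches are also mitochondrial. The deposited counts are of uniquely placed reads, and a read from a shared stretch has more than 1 place in this reference. The files name TAIR10 as their build, and whether its mitochondrial sequence equals that of TAIR10.1 was not tested.

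Roles start from a list of identifiers drawn up from general knowledge. A role is kept below only where the model has the length of the annotated gene of the listed name, as 20 loci do, or where a RefSeq note on a related nuclear gene names the identifier. Length alone gave no name: ATMG01260, with 2 reads in FMO5-OE T1 and 0 in Col-0, has the 618 bases of nad6, and ATMG01400, with 1 read in each library, the 318 bases of nad1c, but neither is the identifier listed for that gene. The 18 protein genes among the 20 fell into 3 classes. In 6 of them (nad9, ccmB, cox1, nad4L, atp4 and the nad5 segment nad5c) every 49-base stretch was found once in the reference. They had 1.17 to 3.73 RPKM (CPM divided by the model length in kb) in FMO5-OE T1 and 0.295 to 4.37 in Col-0. The low end in Col-0 was nad4L. In 3 genes (rps3, rpl16 and cox2) between 51 and 99% of stretches were unique, with 2.63 to 8.95 RPKM in FMO5-OE T1 and 2.17 to 8.78 in Col-0. In the other 9 at most 50% were unique, and they had 0.0548 to 0.799 in FMO5-OE T1 and 0.0618 to 0.841 in Col-0.

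In FMO5-OE T1 the 9 genes with few unique stretches lay below each of the other 9, and in Col-0 they lay below each of the others except nad4L. Across the 18 genes, Spearman's rho of the unique share and the level was 0.769 in FMO5-OE T1 and 0.656 in Col-0, as a description. The genes share 1 library in each case and are not independent. Uniquely placed reads were divided by the whole model length. Such a counting rule can lower the level of a gene with few unique stretches. Its part in these levels, beside that of the amount of transcript, was not tested. Above 50% the level did not rise with the unique share. The median was 8.25 RPKM in FMO5-OE T1 and 7.55 in Col-0 for the class of 51 to 99%. For the wholly unique class it was 3.07 and 2.83.

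**Figure D2:**
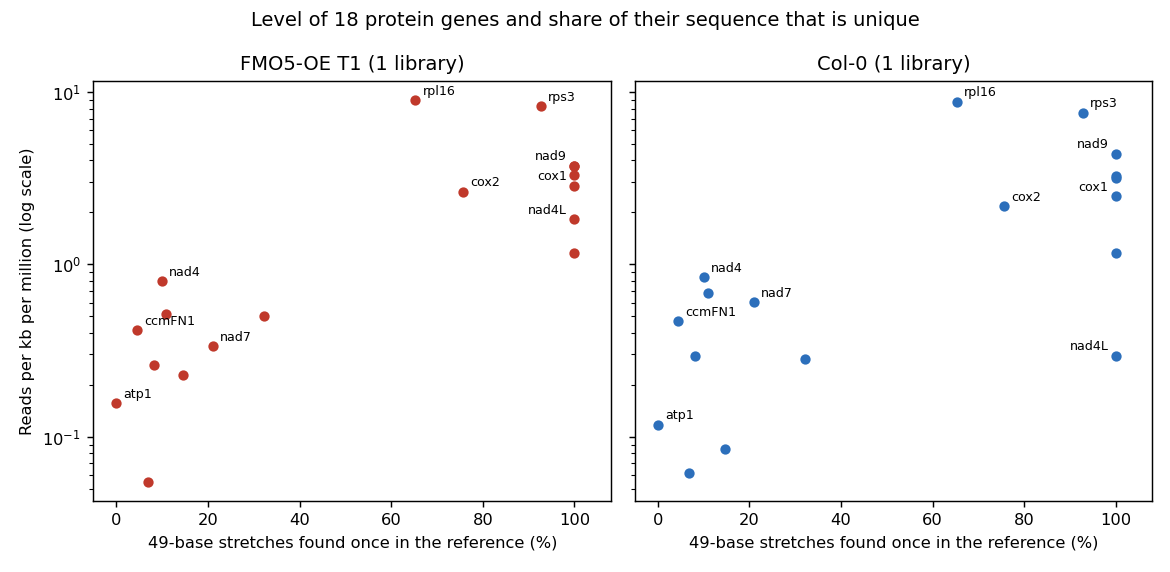
Level of 18 mitochondrial protein genes, in RPKM on a log axis, against the share of their 49-base stretches found once in the TAIR10.1 reference, in FMO5-OE T1 (left) and Col-0 (right), 1 library each. In FMO5-OE T1 the 9 genes at 50% or less lie at 0.799 or lower and the other 9 at 1.17 or higher.

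Covered bases were set against the same unique part. Of the 20 loci, 17 in each library were covered over no more bases than lie in unique stretches. The exceptions were rpl16, ccmFN2 and atp1 in FMO5-OE T1 and rpl16, atp1 and nad2b in Col-0. The 6 wholly unique protein genes, rrn5 and rrn18 could not exceed their unique part, which is their whole length. Genes with very few reads could not either, such as nad5a with 1 read in each library and 192 bases in unique stretches. The count of 17 is thus in part fixed in advance. Without stretches over exon junctions, 7 loci in FMO5-OE T1 and 5 in Col-0 were covered beyond the unique part, and rho of the unique share and the level was 0.718 and 0.576. Whether reads were placed across junctions was not tested. Of the annotated genes, 10 had no read in either table under the identifier listed for them: cob, the cytochrome b of complex III, nad6, rps4, rps7, rps12, rpl5, atp8, ccmC, ccmFC and the first segment of nad1. In 9 of these every stretch was also nuclear, and in ccmFC 96.3% were. For these 10 genes the tables give no measure of the transcripts.

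**Figure D3:**
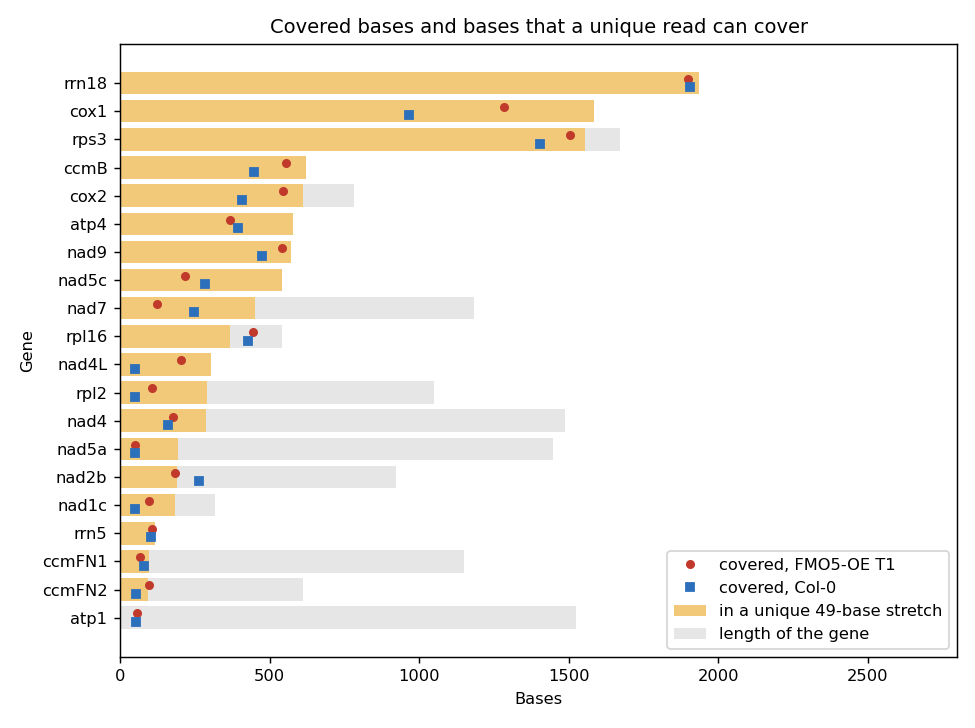
Covered bases in FMO5-OE T1 (circles) and Col-0 (squares) for the 20 loci with the length of an annotated gene, over bars for the gene's length (grey) and the bases that lie in a 49-base stretch found once in the reference (orange). For ccmFN1 68 and 79 bases were covered, of 97 that a unique read can reach.

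In 8 of the genes that are mostly shared, the unique stretches came from 19 windows of 87 to 98 bases. Of these windows, 12 span a junction between exons, a joined sequence not found in the nuclear genome. The other 7 hold a base difference: 5 a single substitution, 1 a pair of neighbouring substitutions and 1 a base missing in the copy. The pair that holds the only unique window of ccmFN1, a subunit of the cytochrome c maturation machinery, is shown with the differing base in capitals, as MT:316018-316114 on the plus strand and 2:3297895-3297991 on the plus strand. The pair for rpl2, a protein of the large ribosomal subunit, follows, as MT:222042-222139 on the minus strand and 2:3411651-3411748 on the plus strand, all in TAIR10.1 from RefSeq.
mitochondrial ccmFN1: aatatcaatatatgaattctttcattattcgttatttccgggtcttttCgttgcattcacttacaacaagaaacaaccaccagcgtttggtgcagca
chromosome 2 copy of ccmFN1: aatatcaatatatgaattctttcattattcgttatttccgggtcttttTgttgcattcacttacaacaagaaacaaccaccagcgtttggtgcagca
mitochondrial rpl2: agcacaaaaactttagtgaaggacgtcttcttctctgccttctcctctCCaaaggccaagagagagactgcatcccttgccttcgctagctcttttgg
chromosome 2 copy of rpl2: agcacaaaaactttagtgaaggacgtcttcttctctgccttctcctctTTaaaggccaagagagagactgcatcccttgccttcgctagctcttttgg
Counted from the first base of the mitochondrial gene, with the mitochondrial base first, the difference in ccmFN1 is C54T and those in rpl2 are C520T and C521T. Whether these bases are edited in the transcripts was not tested.

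Complex I, the NADH dehydrogenase that passes electrons from NADH to ubiquinone, had 9 loci with a role. Together they held 73 reads in FMO5-OE T1 and 67 in Col-0, a ratio of 0.966 (0.683 to 1.37) that turned to 1.03 with scaling by total counts. The best read was nad9, a subunit of the arm in the matrix, with 27 reads in FMO5-OE T1 and 28 in Col-0 over 94.6% and 82.9% of its length. Among the subunits of the membrane arm, nad4 had 15 reads in FMO5-OE T1 and 14 in Col-0. All unique stretches of nad4 lie over exon junctions, and it was covered over 177 bases in FMO5-OE T1 and 161 in Col-0, of 288 in such stretches.

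The small membrane subunit nad4L had 7 reads in FMO5-OE T1 and 1 in Col-0, a ratio of 6.20 whose interval (0.797 to 280) spans 1. The subunit nad7, in the arm in the matrix, had 5 reads in FMO5-OE T1 and 8 in Col-0. Transcripts of nad1, nad2 and nad5 are each joined from pieces transcribed apart. Their segments nad1c, nad2b, nad5a and nad5c had 2, 6, 1 and 8 reads in FMO5-OE T1 and 1, 7, 1 and 7 in Col-0. The last member, nad3, had 2 reads in FMO5-OE T1 and 0 in Col-0, where a count of 0 allows up to 3 reads. No locus of complex I with a fold had an interval that left out 1.

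Complex IV, cytochrome c oxidase, reduces oxygen at the end of the chain. Its 3 catalytic core subunits held 106 reads in FMO5-OE T1 and 86 in Col-0, a ratio of 1.09 (0.814 to 1.47). The gene cox1, every stretch of which is unique, had 57 reads in FMO5-OE T1 over 81.0% of its length and 44 in Col-0 over 61.0%. The gene cox2 had 26 reads in FMO5-OE T1 and 19 in Col-0, and cox3, named by a RefSeq note, 23 in each. The 3 ratios ran between 0.886 and 1.21, and none was separated from 1 by its interval. The model of cox3 has 1447 bases against 798 in the annotated coding sequence, which is wholly shared with the nucleus. Where in the model its reads stand was not tested.

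The ATP synthase had 4 loci with 125 reads in FMO5-OE T1 and 84 in Col-0, a ratio of 1.32 (0.992 to 1.76). With scaling by total counts the ratio was 1.41 (1.06 to 1.88), and with DESeq2 size factors 1.33 (0.997 to 1.77). The sum leaned on atp9, the subunit of the membrane ring, which had 67 reads in FMO5-OE T1 and 38 in Col-0. Its ratio was 1.56 (1.03 to 2.39), and the reads covered 54.2% of the model in both libraries. The model has 504 bases and the annotated coding sequence, wholly shared with the nucleus, 225.

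The other subunits had intervals that span 1 or too few reads for a ratio. The stator subunit atp4, wholly unique, had 24 reads in FMO5-OE T1 and 21 in Col-0, a ratio of 1.01 (0.540 to 1.91). The proton channel subunit atp6-1 had 31 reads in FMO5-OE T1 and 23 in Col-0, a ratio of 1.19 (0.674 to 2.15), stacked on 168 and 158 of 1321 bases. The catalytic-head subunit atp1, with no unique stretch in the reference, had 3 reads in FMO5-OE T1 and 2 in Col-0. ATMG01090, which a RefSeq note describes as an ATP synthase 9 sequence and which is not counted in this group, had 6 reads in FMO5-OE T1 and 9 in Col-0.

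The cytochrome c maturation proteins attach heme to cytochromes of the c type. Their 3 loci had 37 reads in FMO5-OE T1 and 30 in Col-0, a ratio of 1.09 (0.657 to 1.83). The transporter subunit ccmB, wholly unique, had 29 reads in FMO5-OE T1 and 22 in Col-0, whereas ccmFN1 had 6 in each and ccmFN2 2 in each. The window of ccmFN1 printed above spans bases 6 to 102 of a gene of 1149 bases, and 68 bases in FMO5-OE T1 and 79 in Col-0 were covered.

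Among the ribosomal proteins, rps3 of the small subunit was the best read protein gene, with 174 reads in FMO5-OE T1 and 141 in Col-0. Its ratio was 1.09 (0.871 to 1.38), and it was covered over 90.1% and 84.0%. The large-subunit protein gene rpl16 had 61 reads in FMO5-OE T1 and 53 in Col-0, a ratio of 1.02 whose interval spans 1. The genes rps3 and rpl16 overlap by 134 bases in the annotation, and reads there cannot be split between them. The gene rpl2 had 3 reads in FMO5-OE T1 and 1 in Col-0. Over all 22 protein genes with a role the sums were 579 and 462 reads, and the ratio was 1.11 (0.981 to 1.26). It was 1.19 (1.05 to 1.34) with scaling by total counts and 1.12 (0.986 to 1.26) with DESeq2 size factors.

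The remaining 44 loci are given no role here. They include the identifiers listed for 5 annotated genes or segments, left without a role because their models have another length. These are rrn26, the maturase matR, the transport protein mttB and 1 segment each of nad1 and nad2. The 2 segments are therefore not in the sum of complex I. RefSeq notes describe ATMG00370 as a Ycf1 protein, ATMG01110 as resembling a viral polymerase and ATMG01280 as like cytochrome c oxidase subunit II, and each had 1 read in FMO5-OE T1 and 0 in Col-0. Beside ATMG00020 and ATMG00030, the best read of them was ATMG00660, with 96 reads in FMO5-OE T1 and 84 in Col-0, covered over 97.3% and 92.2% of its 450 bases. Its ratio was 1.01 (0.748 to 1.37). It was followed by ATMG00690 with 60 reads in FMO5-OE T1 and 74 in Col-0, a ratio of 0.719 (0.502 to 1.02). ATMG01170 had 46 reads in FMO5-OE T1 and 41 in Col-0, and ATMG01370 had 35 and 32. Per length, ATMG00660 stood at 16.9 RPKM in FMO5-OE T1 and 16.7 in Col-0, and rps3 at 8.25 and 7.55. The 42 unnamed loci outside the leading pair had a median of 2.5 reads in FMO5-OE T1 and 2 in Col-0, and their summed ratio was 0.948 (0.821 to 1.09).

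Both unnamed loci with an interval wholly above 1 had few reads, and they are named because of it. ATMG01330 had 17 reads in FMO5-OE T1 and 5 in Col-0, a ratio of 3.01 (1.07 to 10.4), on only 69 and 62 of its 384 bases. ATMG01020 had 11 reads in FMO5-OE T1 and 1 in Col-0, a ratio of 9.75 (1.42 to 420), on 203 and 49 of its 462 bases. With 1 read in Col-0 the size of that ratio is hardly known.

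At 5 CPM or more in the higher library, 7 mitochondrial loci could be set against a 2-fold rule on CPM + 1. None was at least 2-fold higher in FMO5-OE T1 and none 2-fold lower, where 0.733% and 0.359% of the 13092 loci of all genomes were. Of the 7, 4 had a log2 ratio above 0 and 3 below. Their median log2 ratio was 0.02, against -0.01 over all loci and -0.28 over 66 chloroplast loci. At 1.5-fold the mitochondrial counts were 0 and 0 as well, where 3.38% of all loci were higher and 2.34% lower. A count of 0 among 7 loci is near this background and no result about the mitochondrial genome.

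A ratio could be formed for 40 of the 68 loci, those with more than 3 reads in a library and reads in both. The other 28 had at most 3 reads in each library, and the 18 that were listed in 1 library only (14 in FMO5-OE T1 and 4 in Col-0) had 1 to 3 reads. The counting interval lay wholly above 1 for 5 of the 40 (rrn18, rrn5, atp9, ATMG01020 and ATMG01330) and wholly below 1 for 2 (ATMG00020 and ATMG00030). Over all 20740 loci with a ratio it lay above 1 for 12.7% and below for 14.5%. Among the 9826 loci with at most 200 reads in all, the shares were 6.09% and 4.33%. The same 7 loci were past 1 with scaling by total counts, by DESeq2 size factors and by nuclear totals.

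**Figure D4:**
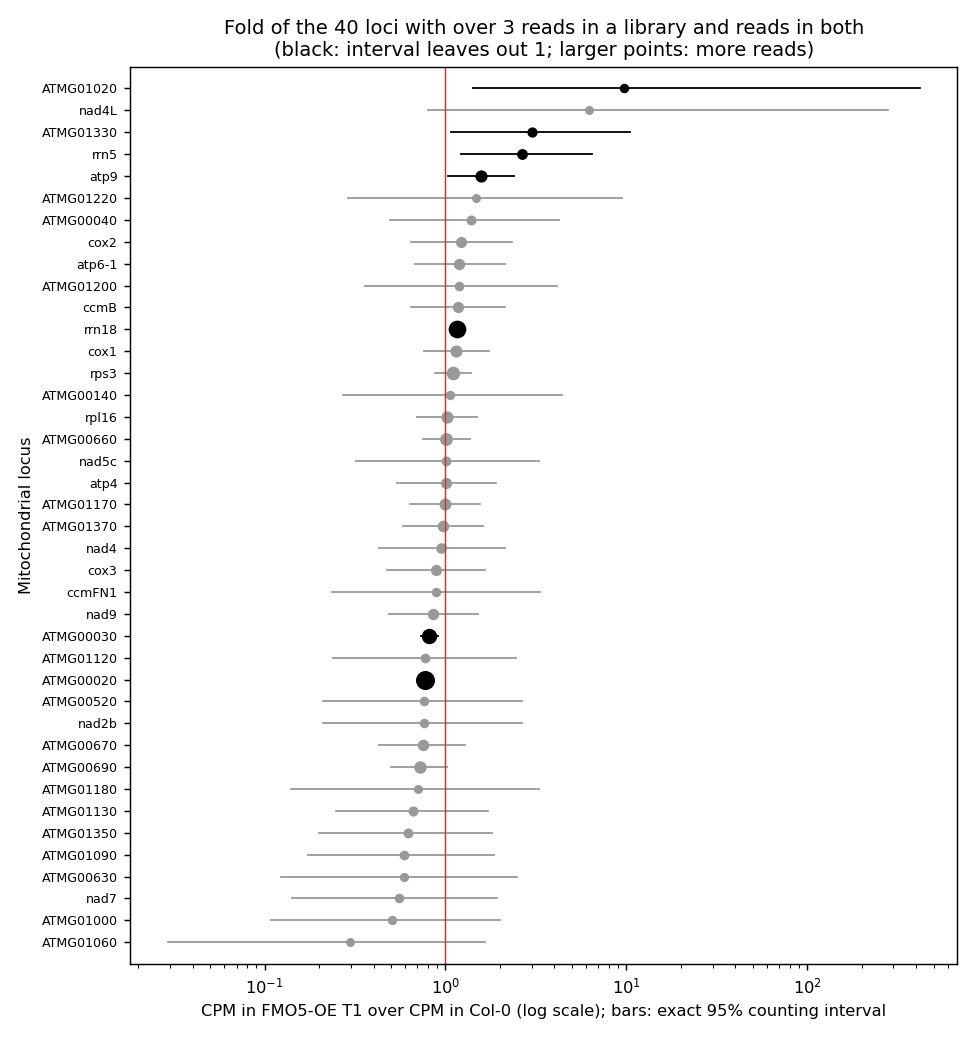
Ratio of CPM in FMO5-OE T1 to CPM in Col-0, on a log axis, for the 40 mitochondrial loci with a ratio, with exact 95% counting intervals, black for the 7 loci whose interval leaves out 1 and larger points for more reads. The best read loci ATMG00020 (0.769) and rrn18 (1.15) lie on opposite sides of 1.

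Reads were also placed on loci in the nuclear copy. Of 184 annotated nuclear loci inside it, 72 were listed in the tables, with 2590 reads in FMO5-OE T1 and 2629 in Col-0, a ratio of 0.873 (0.827 to 0.922). The 5 best read loci that share stretches with a named mitochondrial gene held 1862 of these reads in FMO5-OE T1 and 1924 in Col-0. The genes they copy held 30 in each library. Loci that are shared over their whole annotated span (38 listed) had 241 reads in FMO5-OE T1 and 229 in Col-0. Sharing was measured over the annotated span. Where a counted model differs from the span in length or splicing, unique stretches in the model were not tested. Other models have the length of a wholly shared span, so no stretch in them is unique in the reference. Such models still had uniquely placed reads. AT2G07693, with a model of 1421 bases, had 12 reads in FMO5-OE T1 and 6 in Col-0. AT2G07686, with a model of 2013 bases, had 7 in FMO5-OE T1 and 2 in Col-0. Why reads were placed there was not tested.

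AT2G07709, annotated as a pseudogene of nad7, had 675 reads in FMO5-OE T1 and 702 in Col-0, a ratio of 0.852 (0.766 to 0.948). AT2G07783, which the annotation calls a pseudogene of a cytochrome c biogenesis gene and which shares most with ccmFN1, had 647 reads in FMO5-OE T1 and 712 in Col-0, a ratio of 0.805 (0.723 to 0.897). The model of AT2G07709 has 6063 bases, and 13.1% of its annotated span is shared with named mitochondrial genes. For AT2G07783 the model has 2148 bases, and 72.1% of the annotated span, which is shorter, is shared with such genes. With the mitochondrial genome as a whole, 95.2% of the span of AT2G07709 and 96.6% of that of AT2G07783 are shared. Reads in the rest of such a model need not bear on the gene it is paired with. AT2G07717, a pseudogene of nad4 with a model of 5949 bases, had 348 reads in FMO5-OE T1 and 282 in Col-0, a ratio of 1.09 (0.932 to 1.28). Of its span, 16.5% is shared with named mitochondrial genes and 95.7% with the mitochondrial genome as a whole. AT2G07715, annotated as a protein-coding gene, shares most with rpl2 and had 103 and 105 reads. AT2G07711, an annotated NADH dehydrogenase pseudogene sharing most with nad5a, had 89 reads in FMO5-OE T1 and 123 in Col-0, a ratio of 0.641 (0.483 to 0.849). Which genome these reads were transcribed from was not tested.

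**Figure D5:**
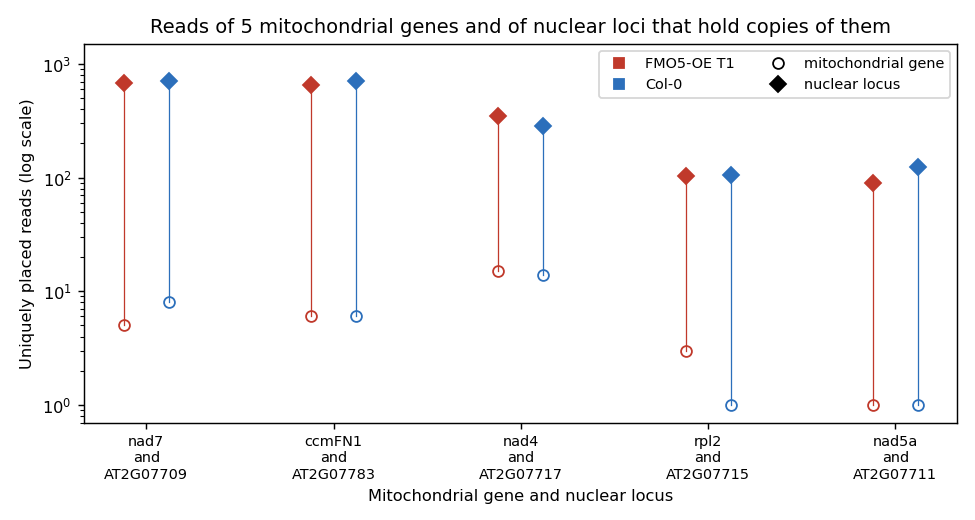
Uniquely placed reads, on a log axis, of 5 mitochondrial genes (open circles) and of the nuclear loci that hold copies of them (diamonds), in FMO5-OE T1 (red, left of each pair) and Col-0 (blue), 1 library each. Each nuclear locus had 89 reads or more in FMO5-OE T1 and each mitochondrial gene 15 or fewer, with models of different lengths.

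Nuclear genes for mitochondrial proteins were taken from lists by complex. None of those that reached 1 CPM in a library was 2-fold or 1.5-fold apart on CPM + 1. At the 1 CPM used for the lists, 131 of 18159 loci of all genomes were 2-fold higher in FMO5-OE T1 and 61 lower. Of 13019 nuclear loci at the higher minimum of 5 CPM, 0.737% were 2-fold higher and 0.346% lower. At that minimum 3.38% and 2.26% were 1.5-fold higher and lower. Median log2 ratios were -0.10 for complex I (3 of 22 above 0), -0.01 for complex II, -0.03 for complex III and cytochrome c, -0.01 for complex IV and -0.17 for the ATP synthase (1 of 9 above 0), against -0.0029 over all loci at 1 CPM. Of those 18159 loci, 9004 were above 0. With scaling by total counts the medians of complex II, complex III and complex IV turned to 0.07, 0.06 and 0.08, those of complex I and the ATP synthase became -0.0094 and -0.07, and the median of all loci at 5 CPM moved by 0.09 in the same direction.

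Among the genes at 5 CPM or more in a library, to which the ranks in this paragraph and the next are limited, the lowest ratios of complex I were 0.789 (0.600 to 1.03) for the iron-sulfur subunit EMB1467, with 105 reads in FMO5-OE T1 and 118 in Col-0, and 0.806 (0.768 to 0.846) for AT5G11770, the 20 kDa subunit. The highest were 1.04 for AT3G03100 and 1.02 for CI51, the NADH-binding subunit. In complex II, which has no mitochondrially encoded member here, SDH4 at 0.811 (0.760 to 0.865) and SDH6 at 0.838 (0.759 to 0.925) stood lowest. The flavoprotein forms SDH1-2 at 1.37 (0.931 to 2.03) and SDH1-1 at 1.02 (0.969 to 1.08) stood highest. In complex III the iron-sulfur protein AT5G13430 at 0.790 (0.737 to 0.845) and MPPBETA, a processing peptidase subunit, at 0.853 were lowest, and AT4G32470 at 1.11 (0.898 to 1.37) and AT1G51980 at 1.03 highest. In complex IV, AT4G37830 at 0.862 (0.730 to 1.02) and AT3G62400 at 0.873 were lowest, and AT5G57815 at 1.15 (0.974 to 1.37) and AT2G47380 at 1.02 highest.

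The nuclear ATP synthase genes were mostly a little lower in FMO5-OE T1. ATPQ, the D chain, had 340 reads in FMO5-OE T1 and 426 in Col-0, a ratio of 0.707 (0.611 to 0.818), and AT5G47030, the delta subunit, 4614 and 5255 reads, a ratio of 0.778 (0.748 to 0.810). ATP5, named for a delta subunit in RefSeq, was the 1 member above 0, with 1023 reads in FMO5-OE T1 and 763 in Col-0, a ratio of 1.19 (1.08 to 1.31). AT5G08670, a beta subunit, came next at 0.901 (0.872 to 0.932). Nuclear factors of mitochondrial gene expression had a median log2 ratio of -0.14, with 7 of 25 above 0, against 9004 of the 18159 loci at 1 CPM. The editing factor RIP1 stood at 0.802 (0.760 to 0.846), the ribonuclease AT5G14580 at 0.751 (0.600 to 0.939), the RNA processing factor RPF3 at 1.30 (0.906 to 1.87) and the editing factor MEF1 at 1.03 (0.722 to 1.48). Beside these stands the summed ratio of the mitochondrial protein genes, 1.11 (0.981 to 1.26). This sum had a ratio of 1.12 (0.986 to 1.26) with DESeq2 size factors and 1.19 (1.05 to 1.34) with scaling by total counts. Total counts also moved the nuclear medians, to -0.07 for the ATP synthase and -0.05 for the gene-expression factors. A summed ratio leans on the best read genes and is another measure than a median over genes.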

How the data were processed

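The deposited tables list, per gene model, counts of uniquely placed reads, which the authors did not normalise; depth was 12.2 M reads in FMO5-OE T1 and 11.6 M in Col-0. A second column holds the percentage of the model covered, per the file headers, beside its length. The deposited RPKM was not used. The submitters' processing notes name TAIR10 as the build; aligner, strand setting and library selection: not given in the sources used here. Models were summed per locus and absent loci set to 0. CPM used edgeR 4.0.16 TMM factors fitted on all loci, and log2 ratios a pseudocount of 1 CPM. Ratios carry exact Clopper-Pearson intervals at 95%, and shares Wilson intervals; they were tested on simulated data. PCR reads without molecular identifiers are not independent molecules, so intervals cover counting error only. A count of 0 was taken to allow 3 reads. No ratio is given where both libraries have 3 or fewer reads or one has 0. With 1 library per genotype no test was made. Read length was taken from models with 1 read, 2241 and 2350 of them, each covered over 49 bases to within 1 base. Stretches of 49 bases were compared, both strands, with all of the TAIR10.1 reference; those over exon junctions were taken from the spliced sequence. Role names come from a list of identifiers, kept where the length or a RefSeq note matched. Members and lists were chosen with earlier results of these data known. The loci named are those with a role, the 5 best read of the rest by CPM and by reads per kb, the 2 highest and 2 lowest of each nuclear list at 5 CPM, and the 5 best read nuclear loci that share stretches with a named member; ATMG01020 and ATMG01330 were named after their values were seen. Of 103 nuclear genes listed, 103 matched RefSeq by locus and 61 also by the name used in the list; the others are called by locus. Alternatives were other scalings (total counts, DESeq2 1.42.0 size factors, nuclear or mitochondrial totals), pseudocounts, minimum levels, fold rules and sets of members.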

Additional observations from a re-analysis of the deposited data

How the results depend on the processing

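The ratio of summed mitochondrial CPM, 0.861, was 0.857 over the 9 loci covered over 80% or more in both libraries and 0.866 with DESeq2 size factors. It was 0.921 with total count scaling, 0.916 with nuclear totals and 0.787 without rrn18 and rrn5. Leaving out those 2 keeps ATMG00020, which has no name here. It also does not leave out all ribosomal RNA. The locus listed for rrn26 is kept, with a model of another length than the annotated gene. ATMG00020 and that locus need not be different loci. The ratio passed to the other side of 1 without ATMG00020, at 1.09. In alternatives chosen after the data were seen, it was 1.06 without the 3 best read loci and 1.04 without rrn18, rrn5, ATMG00020 and ATMG00030. The counts of loci 2-fold higher and 2-fold lower were 0 under all alternatives run, down to a 1.5-fold rule and to no minimum level. The 1.5-fold rule was applied to the same 7 loci. The run without a minimum kept the pseudocount of 1 CPM, with which loci of 10 or fewer reads in each library cannot reach 2-fold. ATMG01020, at a ratio of 9.75, had a log2 ratio of 0.78 with it. The median log2 ratio ranged from -0.29 at a minimum of 20 CPM, where 3 loci remained, to 0.20 with equal mitochondrial totals, which move the median of all loci by 0.21. Of 260 recomputed values of single loci and nuclear lists, 238 stayed within the interval of the main value and 22 did not, and 15 changed sign. The log2 ratio of ATMG00020 was -0.28 and that of rrn18 0.30 with total count scaling. These, and the medians of nuclear complexes I, III and IV, the ATP synthase and the gene-expression factors, moved with the shift of 0.09 that this scaling gives the median of all loci. With a pseudocount of 0.1 CPM the log2 ratios of nad4L, ATMG01020, ATMG01330 and ATMG01060, all with few reads, became 1.79, 2.36, 1.40 and -1.30, and with 5 CPM that of FMO GS-OX5 3.93. No paired analysis was possible because each genotype had 1 library, and for the same reason no replicate could be left out. Depth limits the single loci, since 44 of the 68 had 10 or fewer reads in each library, and the lack of replicates and the sequence shared with the nucleus limit the rest; these limits were not compared.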
